A study of Mus musculus with 9 samples.

Results

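Mature neutrophils from normal mouse bone marrow were compared with the Mac1+ c-kit+ progenitors of the same tissue, on 3 microarrays of each population out of 9 in the series. The arrays were chosen by population alone, and the comparison ran over all 18193 genes that the arrays name. All cells came from male or female C57BL/6 mice aged between 4 and 10 weeks, with no genetic change or treatment named in the labels. Marrow was first divided magnetically by c-kit, the stem cell factor receptor. The progenitors were c-kit+ Gr1+ cells that lacked B220, TER119, CD3, CD4, CD8 and IL7Rα and were sorted as Mac1+, which is the integrin subunit encoded by Itgam. The neutrophils were c-kit-, Gr1+ and Mac1+. By the submitters' cytology the progenitors were undifferentiated cells and myeloblasts, and the c-kit- fraction held mature neutrophils. The other 3 arrays held c-kit+ cells with low Mac1 and did not enter the differences themselves. They entered the variance estimate, the principal components, and the mean levels used to choose probe sets and to filter genes by level. It is not said in the labels whether arrays of a population came from separate animals, nor the age or sex behind each array, so the p-values reflect variation among these samples only, and it may be technical.

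Neutrophils are made in the marrow along a fixed order of stages. Myeloblasts and promyelocytes divide and fill the azurophil granules with myeloperoxidase and serine proteases, myelocytes then make the specific granules, and the later, non-dividing stages make gelatinase granules and secretory vesicles while the nucleus becomes segmented. Each granule protein is largely transcribed at its own stage, and the finished cell carries protein whose mRNA is no longer made. The mature cell relies on glycolysis, has few mitochondria, and responds to bacteria and damaged tissue through receptors for chemoattractants, complement, antibodies and microbial products.

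Values are the deposited array intensities, and differences are neutrophil minus Mac1+ means of log2(intensity + 16), given with the SE of the limma fit and 3 arrays in each group. A gene was called at a Benjamini-Hochberg adjusted p below 0.05 over all genes. The 6 arrays had mean intensities between 549.4 and 727.4 and medians between 39.1 and 61.8, and their number limits the precision. Neutrophil array 1 stood apart from the other 2 neutrophil arrays. Its correlation with them across genes was 0.94 and 0.926, against 0.986 between those 2, and it lay at 64.5 on the second principal component where they lay at -23.1 and -37.3. Counts are therefore also given without it. The bacterial poly-A control transcripts that are spiked into RNA before labelling also differed between the populations. The mean log2 level of their 3′ probe sets was 12.55, 12.50 and 11.38 on the neutrophil arrays and 8.24, 8.70 and 9.33 on the Mac1+ arrays, so the groups did not overlap. The hybridisation controls, at 9.45 to 11.8 on the neutrophil arrays and 8.01 to 8.59 on the Mac1+ arrays, did not overlap either. The amounts spiked are unknown here, and the part of these controls and of array 1 in the differences between populations was not tested.

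**Figure D1:**
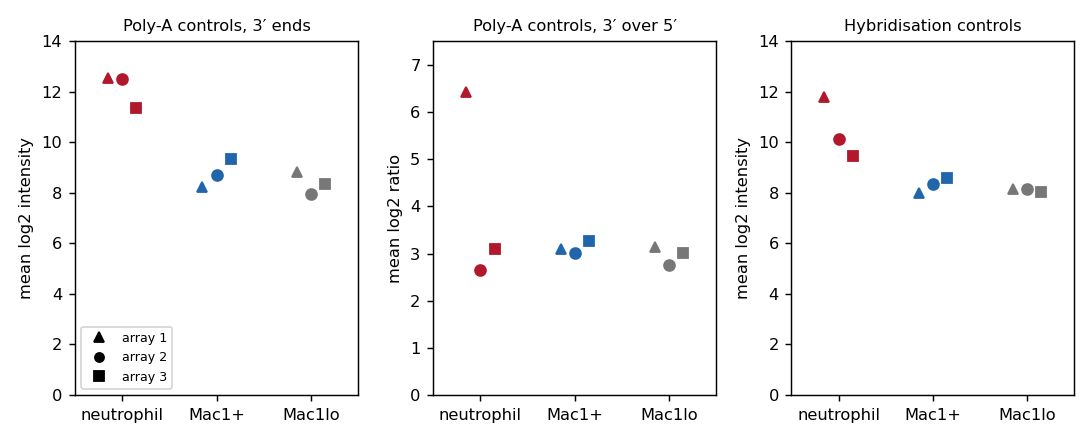
Control probe sets on the 9 arrays, 1 point an array, as the mean log2 intensity of the 3′ poly-A controls, their log2 ratio of 3′ over 5′, and the mean log2 intensity of the hybridisation controls. The poly-A controls lay between 11.38 and 12.55 on the neutrophil arrays and between 8.24 and 9.33 on the Mac1+ arrays. The hybridisation controls lay between 9.45 and 11.8 on the neutrophil arrays and between 8.01 and 8.59 on the Mac1+ arrays. Neutrophil array 1 had the highest 3′ over 5′ ratio and the highest hybridisation controls.

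The sort antigens followed the sort. Kit, the c-kit receptor, read 94.9, 295 and 331 on the neutrophil arrays and 3336, 3176 and 3469.9 on the Mac1+ arrays, and the groups did not overlap (-3.87 ± 0.37, adjusted p = 2.47e-05). Itgam read 2026, 3553 and 3675 on the neutrophil arrays and 919.8, 824 and 695 on the Mac1+ arrays and was higher in neutrophils (1.86 ± 0.23). Cd34, a surface sialomucin of progenitors, was lower (-1.35 ± 0.17). Genes that define the mature neutrophil had a high summed intensity in both populations. Not all of them were bright in Mac1+ cells, and the low Mac1+ values of Mmp8 and Cxcr2 are given below. Of 21 measured neutrophil identity genes, 10 were higher in neutrophils and 0 lower (0.00 at an unadjusted limma p under 0.05), against 19.7% and 28.4% of all genes, with a median difference of 0.37, and their summed intensity was 204371 to 226781 on the neutrophil arrays and 154165 to 168494 on the Mac1+ arrays. None of them was below an intensity of 100 on all 6 arrays. S100a8, a subunit of calprotectin, read 15128, 17081 and 19652 on the neutrophil arrays and 17727, 18964 and 21767 on the Mac1+ arrays, and its difference of -0.18 ± 0.16 did not pass the test (adjusted p = 0.389). Values this close to the top of the scale may be compressed.

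Summed levels of markers of other cells also differed between the groups for most lists. A sum can rest on a few bright genes. The counts called below stand beside 19.7% of all genes higher and 28.4% lower, and several lists were at or below those shares. The summed intensity of 30 monocyte and macrophage genes was 56749 to 63532 on the neutrophil arrays and 36125 to 40141 on the Mac1+ arrays, with Cx3cr1, Ms4a6d, C1qa, Axl, Cd163 and Siglec1 below 100 on all 6. Lgals3, a bright monocyte and macrophage gene given below, made up a large part of the difference between these sums. The sum of 13 dendritic cell genes was 2028 to 2662 against 654 to 689, and 7 of them were below 100 on all 6 arrays. Among these Itgax, also given below, was above 500 on all 3 neutrophil arrays and below 100 on all 3 Mac1+ arrays. It made up a large part of the neutrophil sum, and limma called 2 of the 13 genes higher and 1 lower. The sum of 14 platelet genes was 3715 to 3770 against 1133 to 1286, with 6 below 100 on all 6. In this list Clec1b was above 500 on all 3 neutrophil arrays and below 100 on all 3 Mac1+ arrays, and 4 of the 14 genes were called higher. The sum of 19 B cell genes was 4751 to 8497 against 9921 to 18768, with 12 below 100 on all 6, and limma called 0 of these genes higher and 3 lower. The higher count was also 0 at an unadjusted p under 0.05, 2 without neutrophil array 1 and 5 with array weights. The sum of 20 T and NK cell genes was 1217 to 2095 against 11155 to 12441, with 14 below 100 on all 6, and Nkg7, also a myeloid granule gene, made up most of the Mac1+ sum. Gene by gene, 8 of these 20 were called higher and 2 lower, with a median of 0.50, and the higher count was 4 without Mac1+ array 2, 5 without Mac1+ array 3 and 3 without dim genes. The lower count was 1 without any 1 of the Mac1+ arrays or without neutrophil array 2. For 17 erythroid genes the sum was 1140 to 1326 against 8871 to 9059, with 11 below 100 on all 6, and Tfrc, the transferrin receptor of any dividing cell, made up most of the Mac1+ sum. Of these, 3 were called higher (7 without neutrophil array 3) and 3 lower, with a median of 0.25. The sums overlapped for 17 mast cell, basophil and eosinophil genes, at 9614 to 12204 against 9206 to 9962, with 10 below 100 on all 6. They did not overlap for 17 stromal and endothelial genes, at 768 to 2199 against 585 to 658, with 11 below 100 on all 6. The part of other cells in the differences was not tested. In sorted bulk RNA, fewer cells of a type and less RNA per cell cannot be told apart.

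A large share of the genes differed. In neutrophils 3591 genes (19.7%) were higher and 5163 (28.4%) lower, together 8754 (48.1%), so a list in which close to that share moved is near the background. Without neutrophil array 1 the counts were 4100 (22.5%) and 5726 (31.5%), and 8415 of the 8754 calls were made in both fits, all with the same sign. The large differences were mostly losses: 2255 genes were lower and 824 higher by at least 4-fold, and 406 lower and 176 higher by at least 16-fold. Each gene was read from its probe set with the highest mean over all arrays, most of which held c-kit+ progenitors. This choice can favour probe sets that are bright in progenitors, and its part in the 4-fold counts was not tested. With the mean of probe sets, 3826 genes were called higher and 4813 lower. The median difference over all genes was 0.05 on the log2 scale, and -0.15 after each array was centred on its median, where 32.8% of calls were higher in place of 41.0%. By non-overlap alone, 4321 genes (23.8%) were higher on all 3 neutrophil arrays than on any Mac1+ array and 5619 (30.9%) lower.

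Some genes were at high intensity in 1 population and near background in the other. A gene counted as switched on when all 3 neutrophil arrays were above 500 and all 3 Mac1+ arrays below 100, and as switched off in the reverse case. By that rule 132 genes (0.726%) were switched on and 328 (1.8%) switched off. The DNA replication list held 12 of the switched-off genes, DNA repair 8, the nucleolus 7 and mitosis 6. The interferon list held 7 of those switched on, with 3 each in the gelatinase granule and NF-kB lists.

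**Figure D2:**
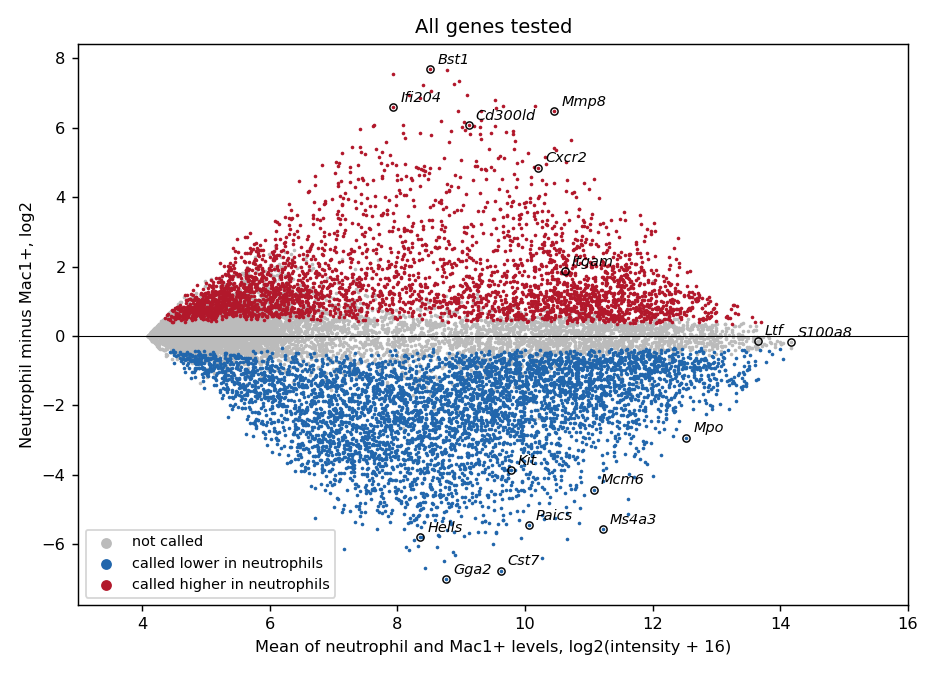
Difference of the neutrophil and Mac1+ means on the log2 scale against the mean of both levels, log2(intensity + 16), 1 point for each of 18193 genes, with the 3591 called higher in red and the 5163 called lower in blue. Points above 0 are higher in neutrophils. Bst1 and Gga2 head the order at the offset used, and Ltf and S100a8 lie near 0 at the top of the scale.

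The first gene in the order of rises on the offset scale was Bst1, a surface enzyme that cleaves NAD and is also known as CD157. It read 5589, 5359 and 4741 on the neutrophil arrays and 8.3, 8.8 and 11.7 on the Mac1+ arrays (7.68 ± 0.14, adjusted p = 2.33e-08). Its Mac1+ values are near background, so the size depends on the offset and was 8.96 with an offset of 1 and 6.17 with an offset of 64. Slc2a6, a glucose transporter family member of intracellular membranes, read 4954, 3896 and 3626 on the neutrophil arrays and 18.4, 7 and 10.9 on the Mac1+ arrays (7.22 ± 0.19). Both were near background on every Mac1+ array and bright on every neutrophil array. The other 13 genes of the 15 with the largest rises on this scale were H2-Q10, Sirpb1a, Slc15a3, Retnlb, Arg2, Pla2g7, Nt5e, Wfdc17, Slfn1, Tpm4, S100a6, Ifi204 and Ifitm1, with differences from 6.58 to 7.67. Among them Slc15a3 carries peptides and histidine out of lysosomes, Nt5e is the CD73 enzyme that makes adenosine, and Tpm4 is a tropomyosin of the actin filament. H2-Q10, Sirpb1a, Retnlb, Slfn1, Ifi204 and Ifitm1 have close paralogs, so their probe sets may read more than 1 family member.

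The first gene in the order of falls on the same scale was Gga2, an adaptor that sorts cargo at the trans-Golgi network. It read 43.4, 12.4 and 16.4 on the neutrophil arrays and 4865, 4693 and 5124 on the Mac1+ arrays (-7.01 ± 0.25, adjusted p = 9.03e-08). With its neutrophil values near background, the difference was -7.81 with an offset of 1 and -5.83 with an offset of 64, and the order among such genes depends on the offset too. The other 14 of the 15 largest falls on this scale were Cst7, Dmkn, Uck2, Nkg7, Snrpf, Hadh, Nop58, Fam131b, Mgl2, Vat1, Dio2, Mcm3, Poglut2 and Igfbp4, with differences from -6.76 to -5.84. They span several functions: Uck2 salvages pyrimidine nucleosides, Snrpf is a core protein of the spliceosome, Hadh oxidises fatty acids, Nop58 builds ribosomes and Mcm3 unwinds DNA for replication. Fam131b differed by -6.13, and by -5.31 and -6.93 when Mac1+ array 1 or 3 was left out.

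**Figure D3:**
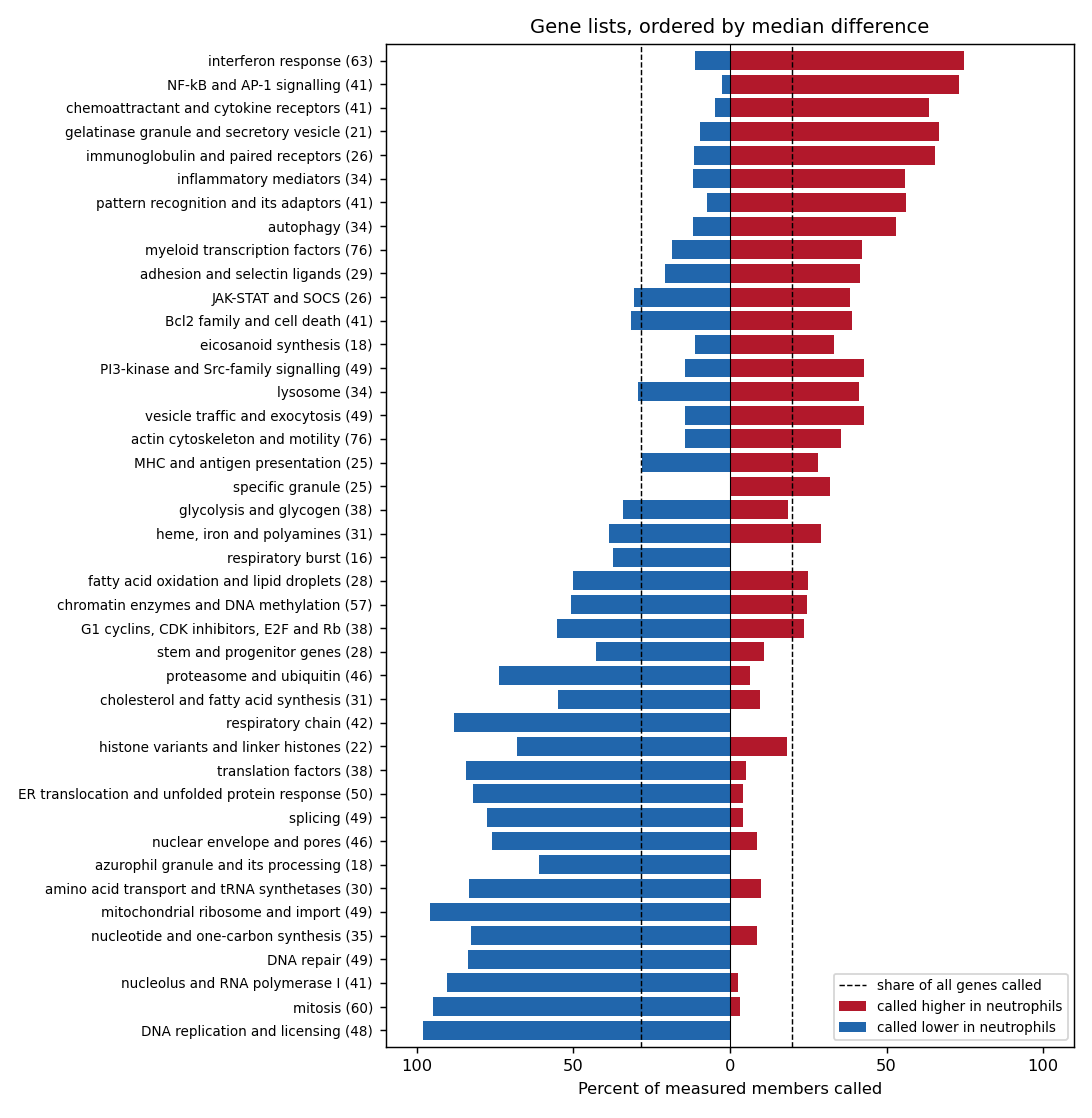
Share of the measured members (number in brackets) of 42 gene lists that were called higher (right) or lower (left) in neutrophils, in percent, with the share over all 18193 genes (19.7% and 28.4%) as dashed lines. Interferon and NF-kB genes lie farthest to the right, and replication, mitochondrial ribosome and mitosis genes farthest to the left.

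The granule genes differed by class of granule. Of 18 measured genes of the azurophil granule and its processing, 0 were higher (0.00 at an unadjusted limma p under 0.05) and 11 lower, with a median of -1.91. Their higher count was 1 after quantile normalization or with the mean of probe sets. Of 25 specific granule genes, 8 were higher and 0 lower (0.00 at an unadjusted p under 0.05, 1 without neutrophil array 1 and 2 after centring). Their median was 0.05, and -0.14 after centring, so it has no settled sign. Of 21 gelatinase granule and secretory vesicle genes, 14 were higher and 2 lower, with a median of 0.98.

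The azurophil losses were steep but uneven between the neutrophil arrays. Elane, neutrophil elastase, read 2199, 451 and 208 on the neutrophil arrays and 15119, 15415 and 17815 on the Mac1+ arrays (-4.71 ± 0.67, adjusted p = 0.000316). Ctsg, cathepsin G, read 1532, 432 and 192 on the neutrophil arrays and 17749, 17538 and 20350.5 on the Mac1+ arrays (-5.14 ± 0.58). Mpo, the myeloperoxidase that makes hypochlorous acid, read 7132, 1712 and 778 on the neutrophil arrays and 14636, 15723 and 18704 on the Mac1+ arrays (-2.93 ± 0.64). For each, the 3 neutrophil arrays differed severalfold among themselves, yet all lay below all 3 Mac1+ arrays. Without neutrophil array 1 the differences were -5.64 for Elane, -5.92 for Ctsg and -3.80 for Mpo, and without neutrophil array 3 they were -3.98, -4.48 and -2.21. Prtn3, proteinase 3, differed by -3.63, by -4.45 without array 1 and by -2.97 without array 3.

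Other azurophil genes fell further. Cst7, an inhibitor of the protease-activating cathepsins, read 161, 47.5 and 21.7 on the neutrophil arrays and 7584, 7776 and 9211 on the Mac1+ arrays (-6.76 ± 0.46, adjusted p = 2.56e-06, -7.38 without neutrophil array 1). Nkg7, a granule membrane protein, differed by -6.39, and by -7.18 without neutrophil array 1. Ms4a3, a tetraspan protein of granulocyte-monocyte progenitors, differed by -5.56, and by -6.19 without it. Gstm1 (-5.39) and Serpinb1a (-0.86), the cytosolic inhibitor of elastase, were lower too. The lysosomal members did not move together: Gusb differed by -1.77 ± 0.18, while Ctsc, which activates the serine proteases, differed by -0.29 ± 0.24 (adjusted p = 0.348).

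Classic specific granule genes were bright in both populations and did not pass the test. Ltf, lactoferrin, read 10425, 12049 and 14481 on the neutrophil arrays and 14085, 12789 and 13224 on the Mac1+ arrays (-0.13 ± 0.31, adjusted p = 0.755). Camp, the cathelicidin precursor, read 10736, 12897 and 14873 on the neutrophil arrays and 13085, 14369 and 17230.5 on the Mac1+ arrays (-0.22 ± 0.26, adjusted p = 0.524). The groups overlapped for both genes, which read near the top of the scale. Ngp (-0.23 ± 0.22) and Lcn2, which binds bacterial siderophores (-0.21 ± 0.16), did not pass either. A few members of the list rose strongly instead. Mmp8, the neutrophil collagenase, read 14115, 12308 and 13238 on the neutrophil arrays and 134, 138 and 128 on the Mac1+ arrays (6.47 ± 0.20, adjusted p = 4.41e-08), and Arg2, the mitochondrial arginase, read 4305, 4239 and 4138 on the neutrophil arrays and 12.9, 18.7 and 16.7 on the Mac1+ arrays (7.05 ± 0.14). Ceacam10 differed by 5.28 ± 0.21, and Chil1, Olfm4 and Slpi by 1.75 to 2.21.

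Genes of the granules formed last were mostly higher. Slc11a1, the metal transporter that withholds iron and manganese from phagocytosed microbes, read 4954, 4969 and 4149.9 on the neutrophil arrays and 83.7, 68 and 53.6 on the Mac1+ arrays (5.81 ± 0.19, adjusted p = 5.02e-08). Adam8, a membrane metalloprotease, read 6853, 6295 and 6150.4 on the neutrophil arrays and 138, 105 and 106 on the Mac1+ arrays (5.61 ± 0.16). Vnn3 (5.97 ± 0.27) and the stefin genes Stfa2l1 (5.91 ± 0.22) and Stfa3 (5.38 ± 0.18) rose by a like amount, though stefins are near-identical copies and were not told apart. Mmp9, the gelatinase that names the granule, rose by 3.58. In the reverse direction, Fcnb, ficolin B, differed by -4.02 ± 0.16, and Hpse, heparanase, by -1.97 ± 0.35.

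**Figure D4:**
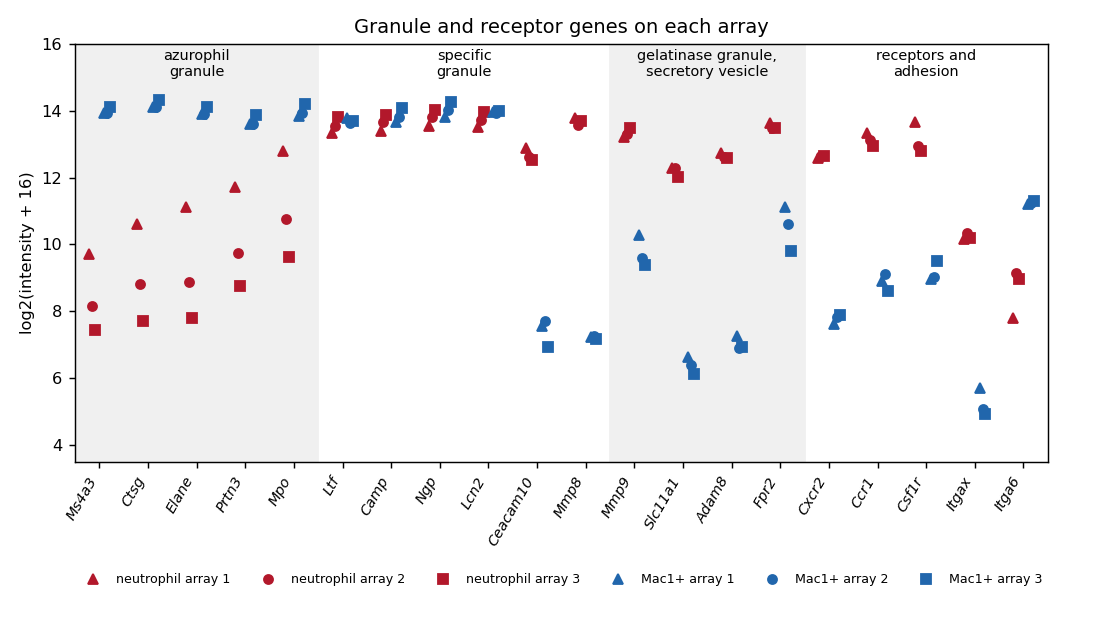
Level of granule, receptor and adhesion genes on each of the 6 arrays, 1 point an array, as log2(intensity + 16). Azurophil genes lie lower on the neutrophil arrays with a wide spread, Ltf, Camp, Ngp and Lcn2 overlap, and Mmp8, Slc11a1, Adam8 and Cxcr2 lie far lower on the Mac1+ arrays.

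Receptors for chemoattractants and cytokines were mostly higher: 26 of 41 rose and 2 fell, with a median of 1.11. Cxcr2, the receptor for ELR chemokines that draws neutrophils out of marrow, read 6149, 6439 and 6379 on the neutrophil arrays and 182, 210.1 and 220.2 on the Mac1+ arrays (4.85 ± 0.15, adjusted p = 4.67e-08). Ccr1, a receptor of CCL3 and CCL5, read 10311, 8871 and 7857 on the neutrophil arrays and 468, 535 and 373 on the Mac1+ arrays (4.25 ± 0.21). Csf1r, the M-CSF receptor usually tied to monocytes, read 12949, 7976 and 7112 on the neutrophil arrays and 485, 507 and 715 on the Mac1+ arrays (3.97 ± 0.24). For these 3 receptors every Mac1+ value lay below every neutrophil value. Il13ra1 (5.17), the death receptor Fas (4.64), P2ry13 (4.28) and Il6ra (3.78) had differences of the same order. Il10ra rose by 3.30, and by 4.07 without neutrophil array 1. Csf3r, the G-CSF receptor, rose by 1.12, and Cxcr4, the receptor that holds cells in marrow, by 1.11. The members that fell were Ccrl2 (-1.28) and Ifngr1 (-1.09), while its partner chain Ifngr2 rose (2.94).

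Adhesion genes went in both directions, with 12 of 29 (41.4%) higher, 6 (20.7%) lower and a median of 0.39. Of all genes, 19.7% were higher and 28.4% lower. Itgax, the CD11c integrin subunit, read 1126, 1285 and 1153 on the neutrophil arrays and 36, 18 and 14.4 on the Mac1+ arrays (4.99 ± 0.22, adjusted p = 2.08e-07). Itga6, which binds laminin, read 205, 548 and 485 on the neutrophil arrays and 2367, 2425 and 2514 on the Mac1+ arrays (-2.63 ± 0.31, adjusted p = 9.46e-05). These integrin subunits moved in opposite directions, each without overlap between groups. Itgb7 (3.56), Itgal (2.02) and Itgb3 (1.69) rose with Itgax, and Itgb1 fell (-0.90) with Itga6. Gcnt1 (2.99) and St3gal6 (2.56), which build the sugar that selectins bind, and their scaffold Selplg (1.44) were higher, whereas the large sialoglycoprotein Spn was lower (-1.60).

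Genes of microbial sensing rose in 23 of 41 cases and fell in 3, or in 5 without neutrophil array 1, with a median of 0.88. Clec4d, a lectin for mycobacterial glycolipid, read 13499, 11295 and 10922 on the neutrophil arrays and 177, 232 and 268 on the Mac1+ arrays (5.64 ± 0.19, adjusted p = 5.82e-08). Tlr5, the flagellin receptor, read 1584, 1364 and 1106 on the neutrophil arrays and 33.9, 19.8 and 27.9 on the Mac1+ arrays (4.98 ± 0.20). Ly96, the MD-2 partner that lets TLR4 bind endotoxin, read 714, 1556 and 1317 on the neutrophil arrays and 23, 28.4 and 27 on the Mac1+ arrays (4.78 ± 0.26), while Tlr4 itself differed by 0.49 ± 0.22 and did not pass (adjusted p = 0.104). Without neutrophil array 1 the Tlr4 difference was 0.76 and was called (adjusted p = 0.000556). Tlr13 (4.91), Nlrp3 (4.82), Clec4e (4.40), Tlr2 (4.37) and Tlr6 (3.65) were also higher. The cytosolic DNA sensing pair went the other way. Cgas, which makes the messenger cGAMP on binding DNA, read 372, 277 and 299 on the neutrophil arrays and 2972, 3010.1 and 3238 on the Mac1+ arrays (-3.23 ± 0.15, adjusted p = 2.38e-07), and Sting1, the receptor of cGAMP, differed by -0.87 ± 0.17. Aim2, a DNA sensor of the inflammasome, rose (1.74).

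Immunoglobulin-like and paired receptors followed the same pattern, with 17 of 26 higher, 3 lower and a median of 0.97. Cd300ld read 4982, 4668 and 4012 on the neutrophil arrays and 52.7, 42 and 62 on the Mac1+ arrays (6.07 ± 0.17, adjusted p = 4.01e-08), and Lair1, an inhibitory receptor for collagen, read 47, 94.3 and 88 on the neutrophil arrays and 974, 1086 and 1101 on the Mac1+ arrays (-3.57 ± 0.21, adjusted p = 1.11e-06). The first was switched on and the second switched off by the intensity rule. Cd300lb (4.51), the inhibitory receptor Pirb (4.49), Cd33 (3.29) and the activating Fc receptor Fcgr4 (3.12) were higher. The inhibitory Fc receptor Fcgr2b (-1.24) and Siglecf (-1.49) were lower. Pirb probe sets can read the related Pira genes.

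No respiratory burst gene was called higher in the fit used throughout. Of 16 measured, 0 were higher (0.00 at an unadjusted p under 0.05) and 6 lower, with a median of -0.27, or 0.08 after quantile normalization, so its sign depends on the scaling. Cybb, the catalytic NADPH oxidase subunit, read 10609.5, 9431 and 8691 on the neutrophil arrays and 9576, 8503 and 7776 on the Mac1+ arrays and did not pass the test (0.15 ± 0.16, adjusted p = 0.473). Ncf1 (0.14 ± 0.13) and Ncf4 (0.14 ± 0.17), cytosolic oxidase subunits, did not pass either. Quantile normalization called 4 members higher, among them these 3, at 0.49 for Cybb, 0.52 for Ncf1 and 0.56 for Ncf4. The members that fell included the superoxide dismutases Sod1 (-1.72) and Sod2 (-1.08) and the proton channel Hvcn1 (-0.99).

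Of 34 inflammatory mediators, 19 were higher and 4 lower, with a median of 0.94. Il1b, interleukin-1 beta, read 6725, 5579 and 5324 on the neutrophil arrays and 149, 117 and 109 on the Mac1+ arrays (5.39 ± 0.16, adjusted p = 4.19e-08), and Il1rn, its natural antagonist, read 4431, 4221 and 3719 on the neutrophil arrays and 325, 261 and 228 on the Mac1+ arrays (3.86 ± 0.20). Both the cytokine and the antagonist were thus higher on every neutrophil array than on any Mac1+ array. The chemokines Ccl6 (5.35) and Cxcl2 (3.87) and the cytokines Osm (2.78) and Tnf (2.11) rose too. Mif, a tautomerase that acts as a cytokine, read 834, 384 and 343 on the neutrophil arrays and 3759.5, 4129.5 and 4732 on the Mac1+ arrays (-3.08 ± 0.30, adjusted p = 2.38e-05). Vegfa differed by -2.81, and by -2.06 without neutrophil array 1.

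Signalling genes of NF-kB and AP-1 that were called moved almost wholly in 1 direction. Of 41 measured, 30 were higher and 1 lower (2 without neutrophil array 1), with a median of 1.28. Dusp1, a phosphatase of p38 and JNK, read 8675, 6475 and 5536 on the neutrophil arrays and 349, 437 and 308 on the Mac1+ arrays (4.17 ± 0.21, adjusted p = 3.8e-07). Relb, a subunit of non-canonical NF-kB, read 326, 509.8 and 492 on the neutrophil arrays and 23.3, 19.8 and 25.9 on the Mac1+ arrays (3.53 ± 0.21). Egr1, an early-response factor, rose by 4.71, by 3.84 without neutrophil array 1 and by 5.33 without array 3. Nfkbiz (3.80), Fosl2 (3.66), and the mRNA-destabilising Zfp36 (3.16) and Zfp36l1 (4.63) also rose. Dusp2, a phosphatase of ERK, was the member that fell, and it read 24.6, 21.6 and 35.6 on the neutrophil arrays and 205, 269.5 and 296 on the Mac1+ arrays (-2.65 ± 0.19, adjusted p = 3.34e-06). Fos and Jun, which respond to handling of cells within minutes, rose by 2.59 and 3.04, and the time from marrow to lysis is not given per array.

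JAK-STAT genes were divided, with 10 of 26 (38.5%) higher, 8 (30.8%) lower and a median of 0.38, against 19.7% and 28.4% of all genes. Cish, a SOCS family inhibitor, read 912, 932 and 842 on the neutrophil arrays and 242, 172 and 179 on the Mac1+ arrays (2.11 ± 0.16, adjusted p = 5.3e-06), and Socs7 read 164, 174 and 346 on the neutrophil arrays and 1268, 1256 and 1124 on the Mac1+ arrays (-2.41 ± 0.28, adjusted p = 8.81e-05). Jak1 (1.14), Stat6 (1.35) and Stat5b (1.28) were higher, and Pias2 was lower (-2.35).

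Of 76 transcription factors, 32 were higher and 14 lower, with a median of 0.55. The Myc network changed in opposite directions within itself. Myc, which drives growth and division, read 95.8, 50 and 55.9 on the neutrophil arrays and 1521, 2148 and 2449 on the Mac1+ arrays (-4.64 ± 0.24, adjusted p = 5.33e-07). Max, its obligate partner, read 1382, 2158 and 1739 on the neutrophil arrays and 298, 323 and 272 on the Mac1+ arrays (2.48 ± 0.25, adjusted p = 3.21e-05), and Mxd1, which pairs with Max and represses Myc targets, read 9995, 10158 and 10069 on the neutrophil arrays and 2762, 2269 and 2236 on the Mac1+ arrays (2.06 ± 0.15). In all 3 genes the 2 populations did not overlap. Irf7 (4.66), Irf5 (3.17) and Irf9 (3.11), of the interferon-regulatory family, and the quiescence factor Klf2 (4.51) were higher. Of the members that fell, Gfi1, a transcriptional repressor, read 599.9, 1131 and 816 on the neutrophil arrays and 8344, 8398 and 8772 on the Mac1+ arrays (-3.35 ± 0.22, adjusted p = 1.84e-06). Myb differed by -2.93 ± 0.24, Hoxa9 by -2.21 ± 0.44 and Cebpa by -1.37 ± 0.26. Cebpb, which takes over in emergency granulopoiesis, differed by 0.69 ± 0.29 and did not pass (adjusted p = 0.0823), but was called at 0.90 without neutrophil array 3 (adjusted p = 0.0366). Spi1, encoding PU.1, rose by 0.71.

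Interferon response genes had one of the highest shares of rises, in mice with no infection named. Of 63 measured, 47 were higher and 7 lower, with a median of 1.65, against 19.7% and 28.4% of all genes. Many interferon targets carry a repeat of GAAA in their promoters. Ifit1, which binds viral RNA caps, read 1237, 1246 and 1296 on the neutrophil arrays and 71.8, 50.9 and 35.1 on the Mac1+ arrays (4.25 ± 0.30, adjusted p = 2.82e-06). Rsad2, viperin, which makes a chain-terminating nucleotide, read 5953, 4253 and 4028 on the neutrophil arrays and 162, 105 and 82.9 on the Mac1+ arrays (5.19 ± 0.26, adjusted p = 3.88e-07). Ifi27l2a read 8908, 4784 and 3770.5 on the neutrophil arrays and 52.5, 53.4 and 68.7 on the Mac1+ arrays (6.21 ± 0.31), and Oas3, which makes the activator of RNase L, read 3196, 3216 and 3591 on the neutrophil arrays and 213, 148 and 135 on the Mac1+ arrays (4.23 ± 0.20). Every neutrophil array lay above every Mac1+ array for these genes. Usp18, which ends interferon receptor signalling, rose by 5.13, Oasl2 by 4.50, Ifit3 by 3.49 and Rtp4 by 5.82.

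Single families held members of both directions. Slfn1, of the schlafen family, read 9249.6, 7678 and 6611 on the neutrophil arrays and 60.1, 58.5 and 45.1 on the Mac1+ arrays (6.79 ± 0.18, adjusted p = 4.01e-08), while Slfn9 read 70.5, 5.8 and 14.3 on the neutrophil arrays and 1263, 1318 and 1568 on the Mac1+ arrays (-5.18 ± 0.43, adjusted p = 8.94e-06). Slfn8 (4.20) and Slfn5 (3.90) rose with Slfn1. Among the guanylate-binding proteins, Gbp2 rose (3.60) and Gbp3 fell (-2.43). Bst2, tetherin, which holds virions at the cell surface, fell by 1.69, and the immunoproteasome subunit Psmb10 differed by -1.82 ± 0.17. These families hold near-identical genes, and probe sets may read more than 1 of them.

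Promoters were set beside the interferon genes because the list is defined by a shared regulator. The motif searched was GAAA, then any 2 bases, then GAAA, on either strand, in the 300 bases from 250 before to 50 after each RefSeq transcription start of assembly GRCm38.p6. It was found in 23 of 49 promoters of the list (46.9%), in 19 of 37 of the genes called higher (51.4%), and in 943 of 27025 promoters of the whole table (3.49%) or 437 of 14452 genes tested here (3.02%). A match describes these letters only and does not show that a factor is bound. The last 200 bases before the start are shown for 4 of the antiviral genes named above, 5′ to 3′ on the strand of the gene, with each match in capitals and matches on the other strand shown as their reverse complement.
Ifit1, chr19:34640689-34640888, plus strand: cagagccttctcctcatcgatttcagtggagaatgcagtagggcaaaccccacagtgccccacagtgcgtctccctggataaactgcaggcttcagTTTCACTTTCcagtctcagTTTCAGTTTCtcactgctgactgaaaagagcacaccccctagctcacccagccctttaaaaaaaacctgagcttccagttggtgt
Ifit3, chr19:34583329-34583528, plus strand: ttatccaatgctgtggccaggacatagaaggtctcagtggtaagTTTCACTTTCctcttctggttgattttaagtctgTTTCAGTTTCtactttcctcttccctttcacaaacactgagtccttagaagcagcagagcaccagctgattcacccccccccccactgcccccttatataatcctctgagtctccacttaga
Rsad2, chr12:26456453-26456652, minus strand: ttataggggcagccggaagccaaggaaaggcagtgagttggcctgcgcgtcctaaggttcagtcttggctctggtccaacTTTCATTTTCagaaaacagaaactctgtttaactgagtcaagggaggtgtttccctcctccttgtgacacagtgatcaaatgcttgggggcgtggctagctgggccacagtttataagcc
Oas3, chr5:120777660-120777859, minus strand: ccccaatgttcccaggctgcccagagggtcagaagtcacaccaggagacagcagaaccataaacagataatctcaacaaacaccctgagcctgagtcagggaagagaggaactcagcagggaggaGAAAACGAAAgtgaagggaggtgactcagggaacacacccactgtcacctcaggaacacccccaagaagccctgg

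Antigen presentation genes were even, with 7 of 25 higher and 7 lower, or 28% each, against 19.7% and 28.4% of all genes. Their median was 0.11 and turned to -0.09 after centring. Ctss, the cathepsin that trims the invariant chain, read 3857, 4229 and 3365 on the neutrophil arrays and 231, 223 and 315 on the Mac1+ arrays (3.83 ± 0.17, adjusted p = 2.43e-07), and Cd74, the invariant chain, rose by 3.70. Nlrc5, the activator of class I genes, was higher (2.95). The members that fell include the peptide-loading chaperones Pdia3 (-2.49) and Calr (-2.05), which are also general ER proteins.

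Cell death genes were mixed. Of 41 measured, 16 (39%) were higher and 13 (31.7%) lower, against 19.7% and 28.4% of all genes, with a median of 0.35. The BH3-only genes, whose products start the mitochondrial route of apoptosis, included risers: Pmaip1, NOXA, read 518, 809 and 832 on the neutrophil arrays and 73.8, 97.5 and 104 on the Mac1+ arrays (2.75 ± 0.26, adjusted p = 2.27e-05), and Bbc3, PUMA, read 254, 351 and 475 on the neutrophil arrays and 58.9, 49.2 and 45.4 on the Mac1+ arrays (2.45 ± 0.22). The necroptosis pair went down. Ripk3, the kinase, read 156, 232 and 175 on the neutrophil arrays and 1172, 1403 and 1496 on the Mac1+ arrays (-2.76 ± 0.17, adjusted p = 1.55e-06), and Mlkl, the pore-forming effector, read 12.4, 70.6 and 72.5 on the neutrophil arrays and 824, 1032 and 899 on the Mac1+ arrays (-3.95 ± 0.39, adjusted p = 2.79e-05). Casp8 (-1.62) and Fadd (-2.37), which carry the signal from Fas, fell while Fas rose. Mcl1, the short-lived protein on which neutrophil survival depends, rose by 1.12, Bcl2l1 rose by 0.76, and Bcl2 differed by -1.03 ± 0.47 (adjusted p = 0.103). Without neutrophil array 1 Bcl2 was called, at -1.68 (adjusted p = 1.83e-05).

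**Figure D5:**
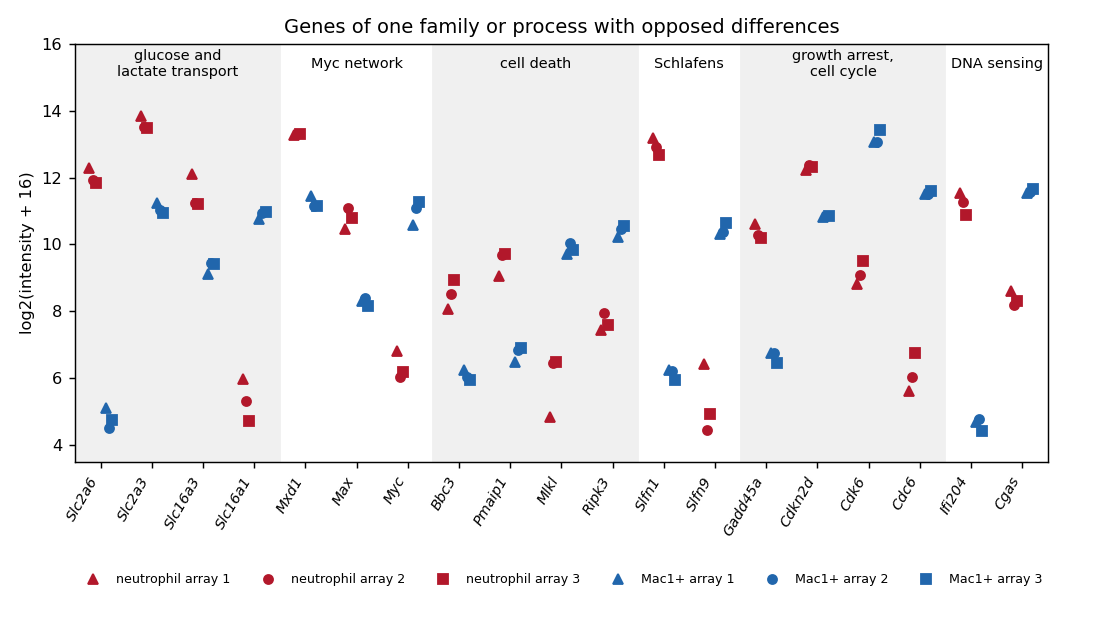
Level on each of the 6 arrays, 1 point an array, as log2(intensity + 16), for related genes that moved in opposite directions. The lactate and glucose transporters, the Myc network, the death genes, 2 schlafens, cell cycle genes and 2 DNA sensors each hold a gene higher on all neutrophil arrays beside one higher on all Mac1+ arrays.

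Genes of actin and motility had 27 of 76 higher and 11 lower, with a median of 0.19, or -0.01 after centring. The lower count was 7 without Mac1+ array 2 and 6 without Mac1+ array 3, and quantile normalization called 45 higher. Prex1, the exchange factor that activates Rac downstream of chemoattractants, read 7870.5, 6184 and 5711 on the neutrophil arrays and 465, 471 and 576 on the Mac1+ arrays (3.66 ± 0.17, adjusted p = 2.63e-07). Rhoc (5.71), the filament-capping Capg (3.24) and Fgd3 (2.83) rose. The kinases that inactivate cofilin differed, Limk2 by 1.75 ± 0.15 and Limk1 by -2.03 ± 0.30. Of the list, 38 did not pass the test, and Actb, which encodes beta-actin, differed by -0.16 ± 0.12 (adjusted p = 0.305).

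Of 49 genes of PI3-kinase and Src-family signalling, 21 were higher and 7 lower, with a median of 0.30. The lower count was 2 with the mean of probe sets, 3 without Mac1+ array 3 or after quantile normalization, and 4 without Mac1+ array 2, neutrophil array 2, or Mac1lo array 2 or 3. Fyb, an adaptor that links receptors to integrins, read 8273, 7432 and 6935 on the neutrophil arrays and 212, 202 and 175 on the Mac1+ arrays (5.15 ± 0.14, adjusted p = 4.04e-08). Pik3cg, the catalytic subunit that G-protein coupled receptors use (1.64), and its regulators Pik3r5 (1.89) and Pik3r6 (1.84) were higher together. Fgr, a Src-family kinase of myeloid cells, rose by 2.32 and Gng2, a G-protein subunit, by 3.14. Of the members that fell, Rheb, which activates mTORC1, differed by -0.80 ± 0.14.

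Vesicle traffic genes were higher in 21 and lower in 7 of 49 cases, with 11 lower without neutrophil array 1 and 12 higher after centring, and a median of 0.22. Snap23, a SNARE of granule exocytosis, read 4796, 5640.2 and 5258 on the neutrophil arrays and 1352, 1308 and 1275 on the Mac1+ arrays (1.98 ± 0.13, adjusted p = 1.91e-06). Stx11 rose by 2.85, Rab37 by 1.96, and Unc13d and Rab27a, which dock granules, by 1.04 and 0.73. Rab38, of lysosome-related organelles, read 133, 80.2 and 107 on the neutrophil arrays and 784, 809 and 844 on the Mac1+ arrays (-2.78 ± 0.18, adjusted p = 1.7e-06).

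The lysosome list was close to even, at 14 (41.2%) higher and 10 (29.4%) lower of 34, with a median of 0.22. Of all genes, 19.7% were higher and 28.4% lower. The 2 transcription factors that control lysosomal genes rose: Tfeb read 2710.5, 1716 and 1486 on the neutrophil arrays and 472, 509 and 380.4 on the Mac1+ arrays (2.04 ± 0.24, adjusted p = 8.09e-05) and Tfe3 differed by 2.70 ± 0.15. Several lysosomal hydrolases did not follow them, with Glb1, beta-galactosidase, at -2.72 ± 0.28 and Gla at -2.48 ± 0.32, while Ctsl (1.27) and Ctsd (0.81) were higher. Autophagy genes were mostly higher, at 18 of 34 against 4 lower (2 after quantile normalization), with a median of 0.67. Ulk1, the kinase that starts autophagy, read 3055, 3366 and 3846 on the neutrophil arrays and 579.6, 628 and 814 on the Mac1+ arrays (2.33 ± 0.18, adjusted p = 5.09e-06), and Atg7, the E1-like enzyme, differed by 2.04 ± 0.12. Atg10, which acts after Atg7 in the same conjugation, read 85.3, 91.3 and 92.4 on the neutrophil arrays and 592, 638 and 707 on the Mac1+ arrays (-2.64 ± 0.14, adjusted p = 6.1e-07).

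Transporters of sugar and lactate differed strongly. The list they belong to was near the background. Of 38 glycolysis and glycogen genes, 7 (18.4%) were higher and 13 (34.2%) lower, against 19.7% and 28.4% of all genes. Their median was -0.20, or 0.07 after quantile normalization. The glucose transporters Slc2a1 (2.63) and Slc2a3 (2.54) rose with Slc2a6. The lactate transporters went in opposite directions. Slc16a3, the exporter MCT4, read 4397, 2394 and 2367 on the neutrophil arrays and 539, 679 and 672 on the Mac1+ arrays (2.19 ± 0.25, adjusted p = 7.45e-05), and Slc16a1, the transporter MCT1, read 46.3, 24.2 and 10.1 on the neutrophil arrays and 1726, 1938 and 1993 on the Mac1+ arrays (-5.56 ± 0.28, adjusted p = 3.88e-07). Ldhb, the lactate dehydrogenase subunit of oxidative tissue, fell by 2.73 and Ldha fell by 0.46 (adjusted p = 0.017), which quantile normalization reduced to -0.08 with an adjusted p of 0.624. Fbp1, of gluconeogenesis, differed by -3.00 ± 0.14, and Pdk1 by -3.10 ± 0.29.

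Mitochondrial genes were lower almost throughout. Of 42 respiratory chain genes, 0 were higher (0.00 at an unadjusted p under 0.05) and 37 lower, with a median of -1.22. The higher count was 1 after quantile normalization, and 2 without probe sets whose names end in _x_at or _s_at. A test for at least a 2-fold difference called 16 lower. Of 49 genes of the mitochondrial ribosome and protein import, 0 were higher (0.00 at an unadjusted p under 0.05) and 47 lower, with a median of -2.51. Their higher count was 1 with array weights or with the mean of probe sets. Atp5g1, of the ATP synthase membrane ring, fell by 3.95 and Ndufb5, of complex I, read 1092, 1235 and 967 on the neutrophil arrays and 5506, 5546 and 5822 on the Mac1+ arrays (-2.35 ± 0.14, adjusted p = 1.17e-06). Mrps2, of the small mitochondrial ribosomal subunit, read 69.6, 72.8 and 30.5 on the neutrophil arrays and 2058, 2175 and 2219.7 on the Mac1+ arrays (-4.94 ± 0.24, adjusted p = 3.32e-07), and Timm10, a chaperone of the space between the membranes, read 56.7, 76.1 and 37.9 on the neutrophil arrays and 1164, 1535 and 1406 on the Mac1+ arrays (-4.27 ± 0.21). Tfam, which packages mitochondrial DNA, differed by -3.27 ± 0.21.

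Fatty acid oxidation had 7 of 28 genes (25%) higher and 14 (50%) lower, against 19.7% and 28.4% of all genes, with a median of -0.39. Hadh, of beta-oxidation, read 31, 50.4 and 35.6 on the neutrophil arrays and 3888, 3994 and 4137 on the Mac1+ arrays (-6.21 ± 0.16, adjusted p = 4.01e-08), and Echs1 (-3.38) and the electron transfer subunit Etfb (-2.95) fell with it. The risers included genes that handle stored fat: Fabp5, a fatty acid carrier, read 10341, 6609 and 5433 on the neutrophil arrays and 315, 476 and 530.4 on the Mac1+ arrays (4.01 ± 0.27, adjusted p = 2.11e-06), and the lipases Lipe (1.84) and Pnpla2 (1.57) and the droplet coat Plin5 (2.50) were higher. Synthesis of cholesterol and fatty acids had 3 of 31 higher and 17 lower, with a median of -1.02. Its higher count was 6 without neutrophil array 1 and 1 without any 1 of the Mac1+ arrays. Fasn, fatty acid synthase, read 105, 52.8 and 54.6 on the neutrophil arrays and 2006, 2525 and 3081 on the Mac1+ arrays (-4.91 ± 0.25, adjusted p = 4.27e-07), and Scd2 (-4.82), Fdps (-3.39) and Dhcr7 (-3.36) fell too.

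Of 18 eicosanoid genes, 6 were higher and 2 lower (1 without any 1 of the Mac1+ arrays), with a median of 0.31. Alox5, which makes leukotriene A4, read 7346, 6268 and 5531 on the neutrophil arrays and 2115, 1775 and 1535 on the Mac1+ arrays (1.81 ± 0.28, adjusted p = 0.000538), while Lta4h, which turns it into leukotriene B4, differed by -0.85 ± 0.16. Pla2g7, which inactivates platelet-activating factor, read 5502, 6439 and 6234 on the neutrophil arrays and 28.4, 32.1 and 38.9 on the Mac1+ arrays (6.95 ± 0.24, adjusted p = 7.62e-08). Heme, iron and polyamine genes had 9 of 31 (29%) higher and 12 (38.7%) lower, against 19.7% and 28.4% of all genes. Their median was -0.21, or 0.05 after quantile normalization. Hmox1, which breaks heme down, read 729, 799 and 835 on the neutrophil arrays and 80.3, 84.9 and 77.7 on the Mac1+ arrays (3.05 ± 0.16, adjusted p = 5.61e-07), and the heme synthesis enzymes Cpox (-3.89) and Alad (-3.48) fell. Tfrc, which takes up transferrin iron, read 162, 516 and 511 on the neutrophil arrays and 7904, 7735 and 7621 on the Mac1+ arrays (-4.40 ± 0.37, adjusted p = 1.05e-05). Odc1 (-2.99) and Srm (-4.57), the first steps of polyamine synthesis, fell while Arg2 and the polyamine-degrading Sat1 (0.89) rose.

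Genes of biosynthesis were mostly lower. Nucleotide and one-carbon synthesis had 29 of 35 genes lower and 3 higher, with a median of -2.89. Paics, of purine synthesis, read 114, 166 and 160.1 on the neutrophil arrays and 6872, 6668 and 7606 on the Mac1+ arrays (-5.45 ± 0.16, adjusted p = 4.37e-08), and Tk1, thymidine kinase, read 164, 86.1 and 50.5 on the neutrophil arrays and 4145, 4262 and 4938 on the Mac1+ arrays (-5.38 ± 0.32). The genes that rose break down or salvage nucleosides: Upp1, uridine phosphorylase, read 628, 832 and 864 on the neutrophil arrays and 7.4, 23.7 and 11.9 on the Mac1+ arrays (4.72 ± 0.22, adjusted p = 2.92e-07), Samhd1, which destroys dNTPs, rose by 1.52, and Dck rose by 1.12. Amino acid transport and tRNA synthetases had 25 of 30 lower and 3 higher, with a median of -2.17. Slc7a5, the importer of leucine, read 14.5, 11.3 and 26.2 on the neutrophil arrays and 544, 644 and 496 on the Mac1+ arrays (-4.13 ± 0.20, adjusted p = 3.8e-07), while Slc7a11, the cystine importer that feeds glutathione, read 129, 294 and 374 on the neutrophil arrays and 32.1, 30.8 and 24.6 on the Mac1+ arrays (2.53 ± 0.33, adjusted p = 0.000178). Iars, the isoleucine synthetase, fell by 4.76.

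Genes of protein synthesis were mostly lower as well. Of 38 translation factors, 32 were lower and 2 higher (1 without Mac1+ array 2, Mac1+ array 3 or neutrophil array 2, and 4 after quantile normalization), with a median of -1.47. Eif3b, a scaffold of initiation, read 257, 498 and 430.3 on the neutrophil arrays and 5326, 5555 and 6616 on the Mac1+ arrays (-3.87 ± 0.23, adjusted p = 1.08e-06). A riser was Eif4ebp1, which blocks the cap-binding protein eIF4E (0.96 ± 0.16), and Eif4e itself fell (-2.83). Of 41 genes of the nucleolus and RNA polymerase I, 37 were lower, with a median of -3.77. Nop58, a core box C/D snoRNP protein, read 44.7, 14.8 and 5.7 on the neutrophil arrays and 2286, 2532 and 2542 on the Mac1+ arrays (-6.16 ± 0.32, adjusted p = 5.06e-07). Gar1, of the pseudouridylation complex, read 91.9, 82 and 61.7 on the neutrophil arrays and 4351, 4700.0 and 5066 on the Mac1+ arrays (-5.65 ± 0.16). Polr1a, the catalytic subunit of RNA polymerase I, was the member that rose, reading 3172, 2443 and 2231 on the neutrophil arrays and 570.5, 746 and 825 on the Mac1+ arrays (1.85 ± 0.19, adjusted p = 3.43e-05). The E-box CACGTG, which Myc and Max bind, was found in 7 of 37 nucleolus promoters (18.9%) against 1957 of 27025 in the table (7.24%) and 1304 of 14452 genes tested here (9.02%).

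Genes of the secretory pathway and the proteasome were mostly lower. Of 50 genes of ER translocation and the unfolded protein response, 41 fell and 2 rose, with a median of -1.69. Rpn2, of the oligosaccharyl transferase, read 172, 434 and 408 on the neutrophil arrays and 5999, 5668 and 7149.5 on the Mac1+ arrays (-4.25 ± 0.31, adjusted p = 3.61e-06), and the chaperone regulator Manf differed by -3.60 ± 0.18. The risers belong to the PERK branch of the stress response: Ddit3, CHOP, read 3286, 2268 and 1747 on the neutrophil arrays and 312, 383 and 396 on the Mac1+ arrays (2.65 ± 0.24, adjusted p = 1.56e-05), and Eif2ak3, PERK itself, differed by 1.52 ± 0.12. Of 46 proteasome and ubiquitin genes, 34 were lower and 3 higher, with a median of -0.97. Psmd7 fell by 3.36, and Fbxl5, the iron-sensing F-box protein (2.21), and the conjugating enzymes Ube2h (3.60) and Ube2b (1.52) rose.

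DNA replication had the highest share of lower genes among the 52 lists. Of 48 measured genes, 47 were lower and 0 higher (0.00 at an unadjusted p under 0.05), with a median of -4.19, against 28.4% lower over all genes. Replication starts where ORC, CDC6 and CDT1 load the MCM helicase, and E2F factors control many of these genes. Mcm6, of the helicase, read 534, 448 and 378 on the neutrophil arrays and 9836, 9528 and 10716 on the Mac1+ arrays (-4.43 ± 0.15, adjusted p = 7.71e-08), and Mcm3 read 71, 63.2 and 92.2 on the neutrophil arrays and 5084, 5572 and 6624 on the Mac1+ arrays (-5.98 ± 0.17). Cdc6, a loading factor, read 33.6, 49 and 91.5 on the neutrophil arrays and 2881, 2929 and 3096 on the Mac1+ arrays (-5.41 ± 0.25, adjusted p = 2.7e-07). Pold2, of polymerase delta, read 40.9, 26 and 38 on the neutrophil arrays and 1731, 2091 and 1931 on the Mac1+ arrays (-5.25 ± 0.16), and Timeless, which steadies the fork, differed by -5.77 ± 0.36. The Mac1+ values of these genes were bright and tight, and most neutrophil values lay near background. The one member that did not pass was Orc2, of the origin recognition complex (0.38 ± 0.40, adjusted p = 0.461). The mean over its probe sets fell by 1.54, so they do not read alike.

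The promoters of this list were searched for the E2F element in the forms TTTGGCGC and TTTCGCGC only, on either strand. Either form was found in 10 of 39 promoters (25.6%), against 225 of 27025 in the whole table (0.833%) and 187 of 14452 genes tested here (1.29%). The 200 bases before the start of Mcm5 (difference -4.57 ± 0.19), Mcm6 and Pola1, of the primase-polymerase (-5.20 ± 0.15), are shown with matches in capitals, where overlapping matches run together.
Mcm5, chr8:75109309-75109508, plus strand: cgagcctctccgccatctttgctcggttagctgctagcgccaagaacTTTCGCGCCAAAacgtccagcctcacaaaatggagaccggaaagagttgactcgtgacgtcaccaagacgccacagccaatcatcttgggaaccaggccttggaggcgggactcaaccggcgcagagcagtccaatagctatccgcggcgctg
Mcm6, chr1:128359706-128359905, minus strand: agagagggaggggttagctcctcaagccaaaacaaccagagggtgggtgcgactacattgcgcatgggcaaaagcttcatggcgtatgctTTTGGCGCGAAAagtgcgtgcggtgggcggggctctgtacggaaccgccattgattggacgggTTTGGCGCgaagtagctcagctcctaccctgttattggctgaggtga
Pola1, chrX:93632156-93632355, minus strand: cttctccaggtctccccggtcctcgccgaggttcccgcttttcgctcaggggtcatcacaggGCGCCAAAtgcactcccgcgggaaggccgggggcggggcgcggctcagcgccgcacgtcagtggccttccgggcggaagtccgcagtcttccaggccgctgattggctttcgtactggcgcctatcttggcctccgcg

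Mitosis genes fell nearly as a whole, 57 of 60, with 2 higher and a median of -4.06. Bub1, a kinase of the spindle checkpoint, read 39.7, 149 and 82.2 on the neutrophil arrays and 3814, 3588 and 3466 on the Mac1+ arrays (-5.23 ± 0.33, adjusted p = 1.51e-06), and Plk4, which duplicates centrioles, fell by 5.03. Birc5, survivin, which rides on mitotic chromosomes, read 299, 602 and 442 on the neutrophil arrays and 5253, 5637 and 5845 on the Mac1+ arrays (-3.65 ± 0.23, adjusted p = 1.42e-06). Kif15, a kinesin, rose by 2.52, and by 1.84 without neutrophil array 1.

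Genes of the G1 phase and its inhibitors went both ways. Of 38 measured, 9 (23.7%) rose and 21 (55.3%) fell, against 19.7% and 28.4% of all genes, with a median of -0.89. Cdk6, a kinase that enters S phase with D cyclins, read 435, 533 and 712 on the neutrophil arrays and 8604, 8520.3 and 11016 on the Mac1+ arrays (-4.05 ± 0.20, adjusted p = 3.58e-07), and Cdk4 differed by -5.69, or by -6.30 without neutrophil array 1. Ccne2, a cyclin of S phase entry, fell by 4.63 and E2f7 fell by 4.63. The risers included genes that restrain the cycle: Gadd45a read 1549, 1230.2 and 1162 on the neutrophil arrays and 91.4, 90.5 and 71.6 on the Mac1+ arrays (3.72 ± 0.18, adjusted p = 3.67e-07), Gadd45g rose by 4.31, Trp53inp1 by 3.35, and the CDK inhibitors Cdkn2d and Cdkn1b by 1.47 and 1.34. Cdkn2c, another inhibitor of CDK4 and CDK6, fell by 3.20.

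Of 49 DNA repair genes, 41 were lower and 0 higher (0.00 at an unadjusted p under 0.05), or 4 higher without neutrophil array 1, with a median of -2.98. Brca1, of homologous recombination, read 39, 45.4 and 44.6 on the neutrophil arrays and 1801, 1803 and 1923 on the Mac1+ arrays (-4.98 ± 0.13, adjusted p = 4.01e-08). Chek1, the kinase of the replication checkpoint, read 24.8, 28.8 and 55.7 on the neutrophil arrays and 1891, 1864 and 1624 on the Mac1+ arrays (-5.15 ± 0.21). Xrcc5 (-3.83) and Prkdc (-2.73), of end joining, and the mismatch gene Msh6 (-4.82, or -4.07 without neutrophil array 1) fell.

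The nucleus itself changed in its genes for RNA processing, pores and chromatin. Of 49 splicing genes, 38 were lower and 2 higher, with a median of -1.76. Snrpf read 46.7, 42.1 and 26.4 on the neutrophil arrays and 4041, 4467 and 4188 on the Mac1+ arrays (-6.31 ± 0.17, adjusted p = 4.01e-08), and the risers were the kinase Clk1 (0.94) and the nuclear RNA Malat1 (2.21). Of 46 genes of the nuclear envelope and pores, 35 were lower and 4 higher, with a median of -1.90. The higher count was 2 without Mac1+ array 1, Mac1+ array 2 or neutrophil array 2, and 0 after centring. Nup205, of the inner ring of the pore, read 93.4, 83.5 and 161 on the neutrophil arrays and 3673, 3568 and 4009 on the Mac1+ arrays (-4.92 ± 0.21, adjusted p = 2e-07), and the exporter Cse1l read 95.7, 130.4 and 114 on the neutrophil arrays and 3921, 4118 and 4469 on the Mac1+ arrays (-5.02 ± 0.15). Lbr, the lamin B receptor needed for nuclear segmentation, differed by -0.09 ± 0.14 and did not pass (adjusted p = 0.608). Lmnb2 fell by 3.71 and Lmnb1 differed by 0.10 ± 0.18 (adjusted p = 0.699).

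Chromatin enzymes had 14 of 57 (24.6%) higher and 29 (50.9%) lower, against 19.7% and 28.4% of all genes, with a median of -0.67. Of the members that fell, Uhrf1, which recruits DNMT1 to new DNA, read 215, 100.5 and 76.1 on the neutrophil arrays and 4779.5, 4901 and 4834 on the Mac1+ arrays (-5.17 ± 0.29, adjusted p = 8.59e-07), Dnmt1 differed by -4.07 ± 0.29, Hells by -5.79 ± 0.12 and Ezh2, which methylates lysine on histone H3, by -4.44 ± 0.18. Kdm6b, which removes the mark that EZH2 sets, read 7691, 5454 and 5546 on the neutrophil arrays and 923, 1068 and 1114 on the Mac1+ arrays (2.56 ± 0.24, adjusted p = 1.79e-05). Padi4, which citrullinates histones when neutrophils release chromatin, read 10596, 7845 and 6834 on the neutrophil arrays and 879, 869.8 and 683 on the Mac1+ arrays (3.34 ± 0.20, adjusted p = 1.08e-06). Hdac4 (1.99) and Tet2 (1.20) rose. Of 22 histone genes, 4 (18.2%) were higher and 15 (68.2%) lower, with a median of -1.41. H3f3b, the replication-independent H3.3, rose (2.77), and H2ax (-3.13), of the damage response, and the chaperone Asf1b (-4.87) fell.

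Stem and progenitor genes were lower in 12 and higher in 3 of 28 cases, with a median of -0.96. Prom1, the CD133 antigen, read 2617, 3103 and 2653 on the neutrophil arrays and 9516, 8969 and 9693 on the Mac1+ arrays (-1.75 ± 0.14, adjusted p = 6.68e-06), and Satb1, a chromatin organiser, read 4916, 4899 and 4256 on the neutrophil arrays and 1470.4, 1238 and 1214 on the Mac1+ arrays (1.83 ± 0.15, adjusted p = 6.91e-06). Monocyte and macrophage genes were higher in 13 of 30 cases and lower in 4, or 2 without Mac1+ array 1 or 3, with a median of 0.60. Lgals3, galectin-3, read 13029, 12035 and 10806 on the neutrophil arrays and 1565, 1009 and 748 on the Mac1+ arrays (3.48 ± 0.26, adjusted p = 4.23e-06), and Cd68 differed by 2.95 ± 0.21. The summed levels of this list and its members below 100 are given above, and their part in these differences was not tested. Of 9160 probe sets without a gene name, 2337 were higher and 632 lower, while more of the named genes were lower than higher. These probe sets did not enter the test of the named genes, and all of them were kept. Each named gene instead took its probe set with the highest mean, which can favour probe sets bright in progenitors. The balances are therefore not directly comparable.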

How the data were processed

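The deposited table holds 1 array intensity for each of 45101 probe sets, on a linear scale. Per the labels' protocols, the submitters extracted total RNA, labelled it with biotin in 2 cycles of amplification, and hybridised it to Affymetrix mouse arrays. The summary method, scaling and software are not given in the sources used here, and the intensities were used as deposited by the authors. Labelling in 2 cycles favours the 3′ end, so probe sets far from it read low.

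Of the probe sets, 34945 name 1 gene, 932 several, 9160 none and 64 are controls, and 99.4% of those with 1 gene matched RefSeq GRCm38.p6. Each of the 18193 genes took its probe set with the highest mean over the 9 arrays, and 9010 genes had several. Of 9552 other probe sets of called genes, 76.6% had the same sign, as did 91.6% of the 5006 called themselves. Values below 0 were set to 0, 16 was added and log2 taken. R 4.3.3 and limma 3.58.1 (lmFit, eBayes) fitted 3 populations on 9 arrays, after a check on simulated data. The 22 alternatives were other offsets, scalings, probe set rules, models and arrays left out.

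Named genes are the sort antigens, the 15 largest rises and falls without overlap, and in each list the 6 largest called members in each direction and those against the majority. Others, among them S100a8, Ltf, Camp, Cybb, Tlr4, Lbr, Orc2, Bcl2, Actb, Mpo, Ifit1 and Mcm6, were chosen after their values were seen. The comparison, the members and all 52 lists (1702 genes measured) were chosen with earlier results of these data known.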

Additional observations from a re-analysis of the deposited data

Results flagged for a closer look

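The poly-A control probe sets differed between the populations by 3.39 on the log2 scale (10.5-fold), with no overlap, in an exact two-sided permutation test with p = 0.1, the smallest that 3 arrays against 3 allow. On neutrophil array 1 the log2 ratio of their 3′ to 5′ probe sets was 6.43, against 2.66 to 3.26 on the other arrays. The hybridisation controls of the same array had a mean log2 of 11.8, against 10.14 and 9.45 on the other neutrophil arrays and 8.01 to 8.59 on the Mac1+ arrays. Of 9160 probe sets without a gene name, 2969 (32.4%) were called between the populations, 2337 of them higher in neutrophils. All of them were kept, without a choice by level, so this share is not directly comparable with that of the named genes. The share called over all probe sets is not given here. None of the controls or unnamed probe sets entered the test of named genes, and the cause of each result was not tested.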

How the results depend on the processing

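Counts of calls, 3591 higher and 5163 lower, were 2786 to 4254 and 4640 to 5726 when each array was left out in turn. Array weights called 5831 higher and 6391 lower, and a test for at least a 2-fold difference called 1025 higher and 2660 lower, which 5069 of 8754 calls did not pass. The other settings stayed within 1.5 times: quantile normalization gave 3768 and 4854, centred arrays 2783 and 5707, and the mean of probe sets 3826 and 4813. Higher genes made up 41.0% of calls, 32.8% after centring, 43.7% after quantile normalization and 47.7% with array weights. The 460 switched genes numbered 69 with limits of 1000 and 50, and 465 to 555 when an array was left out. As the rule needs all arrays of a population, leaving 1 out can only keep or raise that number.

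The replicate numbers were not shown to pair the arrays: deviations of same-numbered neutrophil and Mac1+ arrays correlated at 0.132, 0.046 and 0.086. With the replicate number as a block, 3456 genes were higher and 5014 lower, and 8291 calls were shared with the same sign.

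Of 311 genes named, 291 were called. Of these, 288 were called with the same sign in every setting that tested them, out of 20 beside the 2-fold test. A few settings left some named genes out. The other 3 were Axl, Ldha and Siglec1. The mean over a gene's probe sets moved 65 named genes by over 1.5-fold, 57 of them toward 0, and turned Orc2 from 0.38 to -1.54. An offset of 64 moved 80, all toward 0. Differences of dim genes shrink with the offset, and saturation near the top of the scale limits bright ones. Of 2184 list counts, 178 moved by over 1.5 times.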
